A study of Mus musculus with 4 samples.

Results

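The genes described here mark microglia and other macrophages, and their transcripts were measured in cortex of E15 mice (embryonic day 15), in control and Lhx2 cKO libraries. The set holds 50 genes, picked by gene symbol from the deposited count table of 13289 genes. Of these, 43 had a row and were analysed. The other 7 (Runx1, Cd14, Gpnmb, Spp1, Lgals3, Pf4 and F13a1) were not analysed here. Polyadenylated RNA from fresh cortex was sequenced in 2 control libraries, also titled WT, and 2 libraries of the Lhx2 mutant named cKO. Lhx2 encodes a LIM-homeodomain transcription factor of cortical progenitors, and the comparison asks which transcripts differ once it is targeted. The Cre driver, the allele, the strain, and the litter, sex and number of embryos per library are not given in the sources used here. Nothing states that the libraries of a group came from separate embryos, so p-values measure the spread between these libraries, which may be technical. Levels are in CPM, read counts scaled to library size with TMM factors, a normalization between libraries, and a gene is said to be called at an adjusted p under 0.05 in edgeR's quasi-likelihood test.

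Microglia are the resident macrophages of the brain. They descend from yolk sac progenitors, enter the neural tissue before birth, and depend on the receptor Csf1r and the transcription factors Spi1 (PU.1) and Irf8. In the embryonic cortex they clear dying cells and excess progenitors, and make complement C1q, a protein built of 3 chains that tags material for uptake. Related macrophages sit at the borders of the brain, in the meninges and around vessels, and carry Mrc1 and Lyz2. Much of the machinery of uptake, such as the cathepsins, is not specific to macrophages and is made in other cells of the cortex too.

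Promoter sequences were looked up for the 43 analysed genes, since PU.1 binds the purine-rich box GAGGAA. RefSeq's table for build GRCm38.p6 matched 33 of the 43, with 38 promoters of 250 bases before and 50 after a start. On either strand GAGGAA was found in 20 of the 38 (52.6%), against 28.3% of all 32851 promoters in the table, and the longer GAGGAAGT, which contains it, in 15.8% against 3.2%. Of the 33 genes, 19 held GAGGAA, among them C1qb, C1qc, Trem2, Aif1, Fcrls and Laptm5, which were called higher, Itgam, which was called lower, and Cd68, Cd53, Dock2, Apbb1ip, Hpgds and Inpp5d, which were not called. The ETS and IRF composite, GGAA and then GAAA with a pair of bases between, was in 5.26% of the 38 against 2.72%, the interferon response half-sites, GAAA repeated with the same gap, in 7.89% against 3.44%, and the AP-1 site TGANTCA in 10.5% against 7.81%. The core of the CLEAR element of lysosomal genes, TCACGTGA, was in 1 of the 38, that of Ctsd, against 0.974%. Its longer form, with a G before and a C after, was in 0 of the 38 (0.326% of all), and the E-box CACGTG, which TCACGTGA contains, was in 10.5% against 7.15%. These matches describe letters in a window and not bound sites. Shown here are the 250 bases before the start, 5′ to 3′ in the direction of the gene, for C1qc (chr4:136892915-136893164, minus strand), C1qb (chr4:136886201-136886450, minus strand), Trem2 (chr17:48346151-48346400, plus strand) and Ctsd (chr7:142387828-142388077, minus strand). The first 3 belong to genes called higher below relative to the summed counts of the identity genes, and Ctsd had the largest log2 fold change of the 7 phagocytic and lysosomal genes. Capitals mark GAGGAA or its reverse complement in the first 3 and TCACGTGA in Ctsd.
C1qc: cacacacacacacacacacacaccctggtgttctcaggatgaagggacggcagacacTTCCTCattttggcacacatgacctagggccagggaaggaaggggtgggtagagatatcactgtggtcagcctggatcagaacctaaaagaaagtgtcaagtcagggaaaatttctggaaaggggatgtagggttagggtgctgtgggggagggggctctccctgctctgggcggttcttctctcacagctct
C1qb: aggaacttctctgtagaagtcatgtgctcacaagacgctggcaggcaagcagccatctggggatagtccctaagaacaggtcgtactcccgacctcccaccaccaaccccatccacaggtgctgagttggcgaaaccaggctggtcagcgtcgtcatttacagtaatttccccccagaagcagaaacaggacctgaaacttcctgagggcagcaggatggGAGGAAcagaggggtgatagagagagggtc
Trem2: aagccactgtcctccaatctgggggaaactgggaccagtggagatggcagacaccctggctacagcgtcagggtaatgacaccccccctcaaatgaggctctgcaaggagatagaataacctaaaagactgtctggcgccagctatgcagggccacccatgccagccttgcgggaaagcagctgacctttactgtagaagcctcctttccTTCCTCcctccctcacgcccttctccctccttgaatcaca
Ctsd: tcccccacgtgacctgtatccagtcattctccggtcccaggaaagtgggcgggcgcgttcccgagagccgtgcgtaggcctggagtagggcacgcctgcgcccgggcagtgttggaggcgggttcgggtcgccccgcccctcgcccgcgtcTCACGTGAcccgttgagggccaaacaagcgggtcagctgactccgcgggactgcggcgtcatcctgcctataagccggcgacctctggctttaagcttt
The box lay 193 bases before the start in C1qc, 30 in C1qb and 40 in Trem2, and the CLEAR core of Ctsd began 99 bases before its start.

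Total counts ranged from 22294237 to 24609627 per library, and 3 counts, the floor used for detection, are worth 0.12 to 0.132 CPM, which covers counting error only. Lhx2 was at 316 and 287 CPM in control and at 239 and 247 CPM in Lhx2 cKO. Its log2 fold change was -0.31, in the direction of the labels (SE 0.0976, adjusted p = 0.0191). Without control 1 it was -0.25 with an adjusted p of 0.176, without Lhx2 cKO 1 -0.28 (0.102) and without Lhx2 cKO 2 -0.34 (0.0538). The tissue label was checked against 10 cortical markers, among them Emx1, Pax6, Tbr1 and Eomes, which were all present, with a summed level of 4599 to 4772 CPM in control and 4063 to 4231 CPM in Lhx2 cKO. Of these 10 markers 6 were called lower and 0 higher.

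Most of the microglia and macrophage genes were higher in Lhx2 cKO. Of the 43 analysed, 32 (74.4%) were called higher, 1 was called lower and 10 were not called. Over all 13288 genes tested, 11.6% were called higher and 9.17% lower, 20.8% in all. The median log2 fold change of the 43 genes was 0.96, against 0.003 over all genes. Both Lhx2 cKO libraries lay above both control libraries for 39 of the 43, against 30.2% of all genes, and below them for Itgam alone, against 29.1%. Plcg2, Cd53 and Dock2 were the genes whose groups overlapped. In bulk tissue a change in the number of microglia and a change in RNA per cell cannot be told apart. No row of the table sums to fewer than 102 counts, and Mrc1, Cybb, Ikzf1 and Dock2 would fall under that sum at their control level, so they were present only through the Lhx2 cKO libraries. Without these 4, chosen after the data were seen, 30 of 39 were called higher and 1 lower, with a median of 0.96. With each library left out in turn, the median of the 43 ran from 0.84 to 1.07. Each of these fits called fewer of the 43 higher, and also fewer of all genes. Without the 7 phagocytic and lysosomal genes, a setting added after the data were seen, 26 of the rest were called higher.

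**Figure D1:**
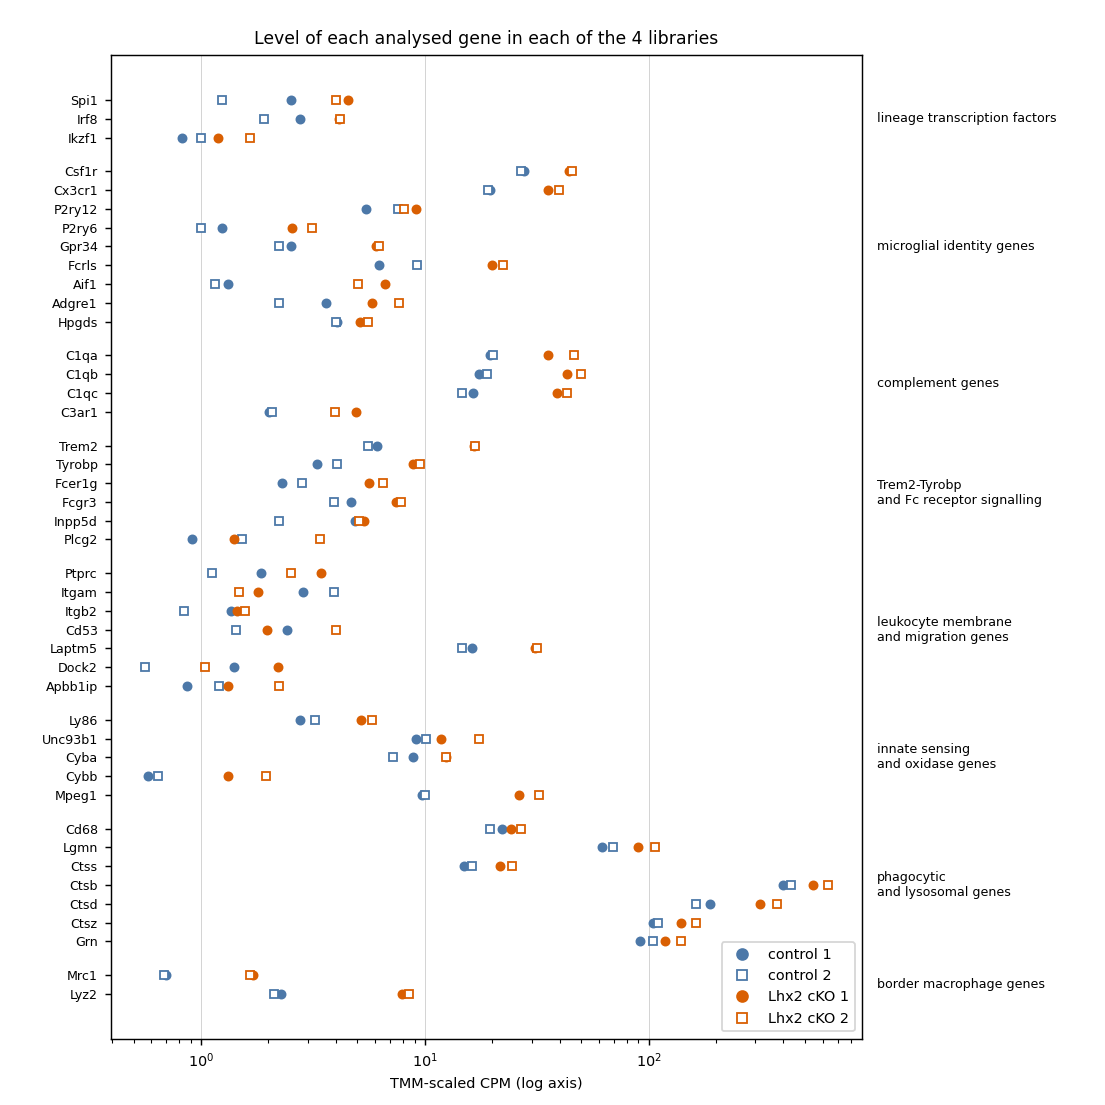
Level of the 43 analysed genes in each library, as TMM-scaled CPM on a log axis, grouped by role; circles are replicate 1, open squares replicate 2, blue is control and orange Lhx2 cKO. The orange points lie to the right of the blue ones for 39 genes and to the left for Itgam.

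Among the lineage transcription factors, 2 of 3 analysed genes were called higher and 1 was not called, with a median log2 fold change of 0.83. Spi1 (ENSMUSG00000002111.9), which encodes PU.1, the factor that sets macrophage fate, was at 2.52 and 1.24 CPM in control and at 4.53 and 4 CPM in Lhx2 cKO (log2 fold change 1.18, SE 0.326, adjusted p = 0.00693). Irf8 (ENSMUSG00000041515.11), a partner of PU.1 in microglia, was at 2.76 and 1.92 CPM in control and at 4.13 and 4.18 CPM in Lhx2 cKO (0.83, SE 0.302, adjusted p = 0.0447). Both were higher in each Lhx2 cKO library than in either control library, and the control libraries differed from each other, most for Spi1. Ikzf1 (Ikaros, a factor of blood cells) was at 0.825 and 1 CPM in control and at 1.19 and 1.65 CPM in Lhx2 cKO and was not called (adjusted p = 0.361). Without control 2 neither gene was called, with adjusted p of 0.159 for Spi1 and 0.301 for Irf8. Irf8 also lost its call without Lhx2 cKO 1 (0.124), without Lhx2 cKO 2 (0.174) and in DESeq2 (0.0984).

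Of the 9 microglial identity genes, 7 were called higher, 2 were not called, and each was higher in both Lhx2 cKO libraries than in both control libraries. The sizes differed widely within the group. Csf1r (ENSMUSG00000024621.17), the growth factor receptor that keeps microglia alive, was at 27.8 and 27 CPM in control and at 44.3 and 45.3 CPM in Lhx2 cKO (log2 fold change 0.71, SE 0.107, adjusted p = 2.58e-06). Cx3cr1 (ENSMUSG00000052336.8), the receptor for the neuronal chemokine fractalkine, was at 19.5 and 19.2 CPM in control and at 35.5 and 39.9 CPM in Lhx2 cKO (0.96, SE 0.118, adjusted p = 3.27e-08). For these more abundant identity genes the replicates of a group lay close together. Fcrls (ENSMUSG00000015852.14), an Fc receptor-like protein typical of microglia, was at 6.27 and 9.2 CPM in control and at 19.9 and 22.4 CPM in Lhx2 cKO (1.45, SE 0.166, adjusted p = 6.53e-09). Aif1 (ENSMUSG00000024397.15), the calcium-binding protein Iba1 used to stain microglia, was at 1.32 and 1.16 CPM in control and at 6.64 and 5.05 CPM in Lhx2 cKO (2.23, SE 0.312, adjusted p = 5.28e-07). It had the largest log2 fold change of the 43 genes.

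P2ry12 (ENSMUSG00000036353.14), the purinergic receptor of surveying microglia, was at 5.44 and 7.56 CPM in control and at 9.1 and 8.05 CPM in Lhx2 cKO, 0.40 on the log2 scale (SE 0.202), and was not called (adjusted p = 0.167). Its groups were apart by a small margin. In GENCODE M21 its exons overlap those of Med12l on the other strand, and since the use of strand in counting is not given in the sources used here, the count of P2ry12 is uncertain. Med12l itself was at 8.7 and 6.68 CPM in control and at 7.82 and 7.53 CPM in Lhx2 cKO. The other uncalled identity gene was Hpgds (prostaglandin D synthase of blood cells), at 0.41 (adjusted p = 0.253). The remaining identity genes were called higher: the receptors Gpr34 at 1.37 and P2ry6 at 1.34, and Adgre1 (the macrophage marker F4/80) at 1.20 on the log2 scale. P2ry6 lost its call without control 2 (adjusted p = 0.0609) and without Lhx2 cKO 2 (0.11). Csf1r overlaps Hmgxb3 and Cx3cr1 overlaps Gm33858, each on the other strand, so their counts carry the same uncertainty; Hmgxb3 was at 26.3 and 26.2 CPM in control and 22.2 and 25.6 CPM in Lhx2 cKO and was not called.

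All 4 complement genes were called higher, with a median log2 fold change of 1.23. The 3 chains of C1q come from neighbouring genes. C1qa (ENSMUSG00000036887.6) was at 19.5 and 20.1 CPM in control and at 35.6 and 46.3 CPM in Lhx2 cKO (1.04, SE 0.122, adjusted p = 1.05e-08). C1qb (ENSMUSG00000036905.9) was at 17.4 and 18.9 CPM in control and at 43.2 and 49.8 CPM in Lhx2 cKO, where its log2 fold change was 1.36 (SE 0.116, adjusted p = 3.40e-12). C1qc (ENSMUSG00000036896.6) was at 16.5 and 14.7 CPM in control and at 39 and 43.4 CPM in Lhx2 cKO (1.40, SE 0.121, adjusted p = 4.49e-12). For each chain the Lhx2 cKO libraries stood well clear of the control libraries, and Lhx2 cKO 2 was the higher of its pair. C3ar1 (ENSMUSG00000040552.9), the receptor for a fragment of complement C3, was at 2.02 and 2.08 CPM in control and at 4.92 and 3.96 CPM in Lhx2 cKO (1.11, SE 0.302, adjusted p = 0.00612). Without Lhx2 cKO 1 it was not called (adjusted p = 0.0887). Per kilobase of deposited gene length, the mean control levels were 19.1 CPM for C1qa, 16.7 for C1qb and 8.07 for C1qc, against 4.75 for Csf1r and 4.30 for Cx3cr1, so the C1q chains were the more abundant transcripts.

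In the group of Trem2, Tyrobp and Fc receptor signalling, 4 of 6 genes were called higher and 2 were not called, with a median log2 fold change of 1.11. Trem2 (ENSMUSG00000023992.15), a lipid-sensing receptor for uptake, was at 6.14 and 5.56 CPM in control and at 16.6 and 16.7 CPM in Lhx2 cKO (1.51, SE 0.17, adjusted p = 4.97e-09). Tyrobp (ENSMUSG00000030579.11), the adaptor that carries the Trem2 signal, was at 3.3 and 4.04 CPM in control and at 8.83 and 9.49 CPM in Lhx2 cKO (1.32, SE 0.218, adjusted p = 1.17e-05). Receptor and adaptor were thus both higher, with no overlap between groups. Fcer1g, the adaptor of Fc receptors, was at 1.23 (adjusted p = 6.2e-04), and the Fc receptor Fcgr3 was at 0.83 (adjusted p = 0.00521); Fcgr3 was not called without control 2 (0.0567). Neither downstream enzyme was called. The phosphatase Inpp5d was at 4.87 and 2.24 CPM in control and at 5.36 and 5.09 CPM in Lhx2 cKO and was not called (0.56, SE 0.283, adjusted p = 0.166). Without control 1, the higher of its control libraries, it was at 1.21 and called (adjusted p = 0.00968). The phospholipase Plcg2 was at 0.98 (adjusted p = 0.0958), with 32 and 78 counts in the Lhx2 cKO libraries. It was called without Lhx2 cKO 1 (1.48, adjusted p = 0.0116) and without control 2 (1.40, 0.0448).

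Of the 7 leukocyte membrane and migration genes, 2 (28.6%) were called higher, 1 (14.3%) was called lower and 4 were not called. Over all genes 11.6% were called higher and 9.17% lower. The median log2 fold change of the 7 was 0.73. That median was 0.30 without control 2. Laptm5 (ENSMUSG00000028581.18), a lysosomal membrane protein of blood cells, was at 16.3 and 14.7 CPM in control and at 31.2 and 31.8 CPM in Lhx2 cKO (1.02, SE 0.126, adjusted p = 3.63e-08). Ptprc (ENSMUSG00000026395.17), the leukocyte marker CD45, was at 1.86 and 1.12 CPM in control and at 3.43 and 2.52 CPM in Lhx2 cKO (1.0, SE 0.371, adjusted p = 0.0495). Laptm5 was clear of the spread between libraries, while Ptprc was at the threshold and lost its call under 6 alternatives, with adjusted p from 0.0504 without the low-count filter to 0.302 without control 2. Itgam (ENSMUSG00000030786.19), the integrin chain CD11b, was the only gene called lower. It was at 2.85 and 3.92 CPM in control and at 1.8 and 1.48 CPM in Lhx2 cKO, or -1.04 on the log2 scale (SE 0.344, adjusted p = 0.0253). These levels rest on 69 and 98 reads for control and on 41 and 34 for Lhx2 cKO. The call was lost without control 2 (-0.79, adjusted p = 0.228), without Lhx2 cKO 2 (-0.91, 0.168) and in DESeq2 (-1.05, 0.0566), and over all alternatives its adjusted p ran from 0.0179 to 0.228. Itgam shares exons with Gm49368 on the same strand, so its count is uncertain. Its integrin partner Itgb2 was at 0.46 (adjusted p = 0.515), and Cd53, Dock2 and Apbb1ip were at 0.63, 0.73 and 0.77 and were not called.

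All 5 analysed innate sensing and oxidase genes were called higher, with a median log2 fold change of 0.87, or 0.75 without Cybb, whose row was present only through Lhx2 cKO. Mpeg1 (ENSMUSG00000046805.11), a pore-forming protein of macrophages, was at 9.73 and 10 CPM in control and at 26.5 and 32.4 CPM in Lhx2 cKO (1.58, SE 0.142, adjusted p = 1.41e-11). Its groups were far apart. Ly86, a partner of a Toll-like receptor relative, was at 0.87 (adjusted p = 0.0147), and Unc93b1, which brings Toll-like receptors to endosomes, was at 0.61 (adjusted p = 0.00919). Cyba and Cybb encode the membrane subunits of the phagocyte NADPH oxidase. Cyba was at 0.63 (adjusted p = 0.00728) and Cybb at 1.42 (adjusted p = 0.0306), the latter from 14 and 16 counts in control and 30 and 45 in Lhx2 cKO. Apart from Mpeg1 these calls depended on single libraries. Ly86 lost its call without control 1 (adjusted p = 0.118) or Lhx2 cKO 2 (0.129), Unc93b1 without the same libraries (0.0711 and 0.469), and Cyba without control 2 (0.0989). Cybb lost it without control 1 (0.128), control 2 (0.075) or Lhx2 cKO 2 (0.308), and in DESeq2 (0.0872).

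**Figure D2:**
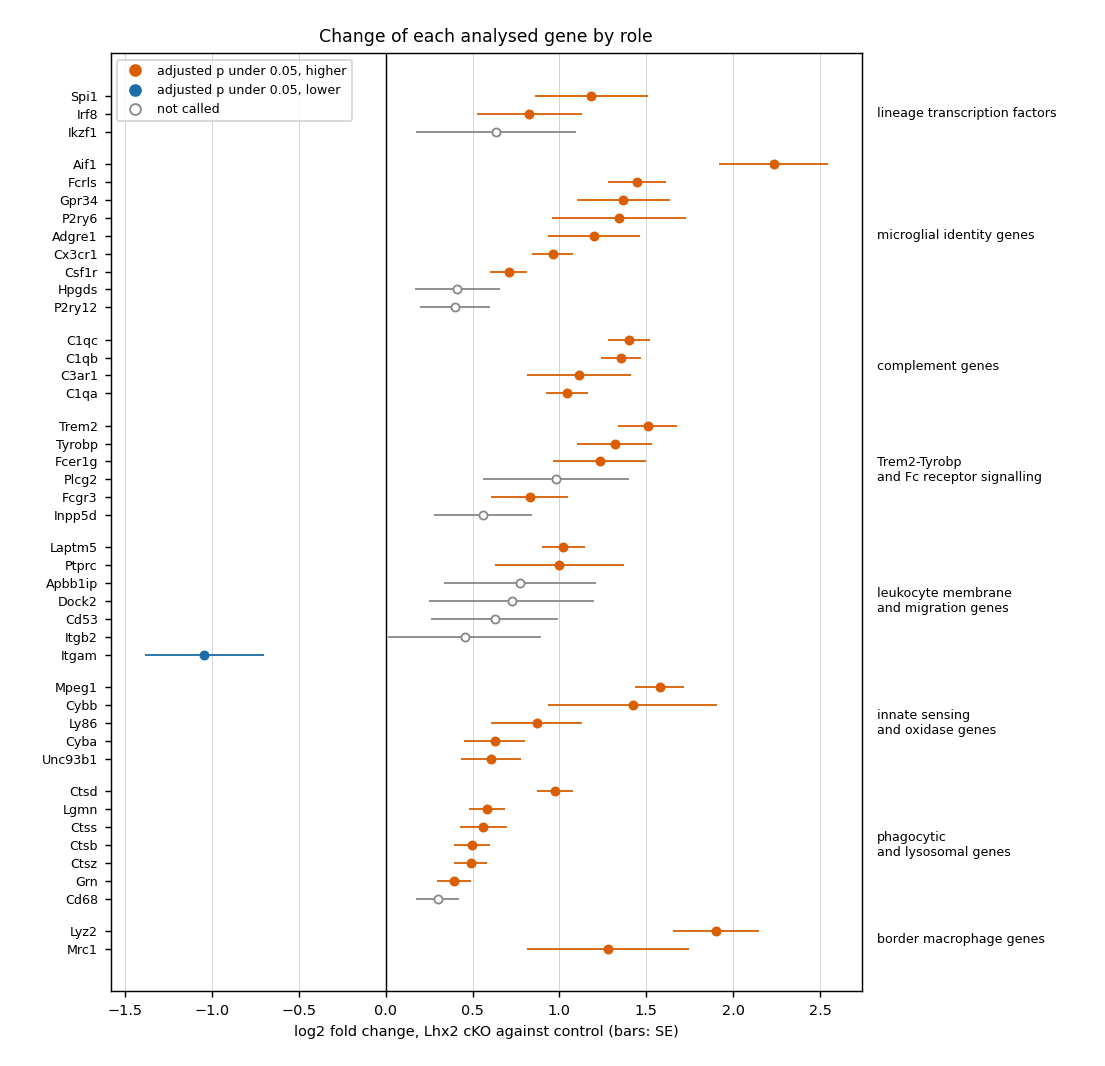
Difference between Lhx2 cKO and control on the log2 scale for the 43 analysed genes by role, with bars of 1 standard error; filled points were called in edgeR. The complement group lies between 1.04 and 1.40, the phagocytic and lysosomal group between 0.30 and 0.98, and Itgam is the only gene below 0.

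The phagocytic and lysosomal genes had smaller log2 fold changes: 6 of 7 were called higher, with a median of 0.50. Ctsd (ENSMUSG00000007891.17), an aspartic protease of lysosomes, was at 188 and 163 CPM in control and at 316 and 375 CPM in Lhx2 cKO (0.98, SE 0.103, adjusted p = 9.94e-10). Lgmn (ENSMUSG00000021190.15), the lysosomal protease legumain, was at 62 and 69.4 CPM in control and at 89.3 and 107 CPM in Lhx2 cKO (0.58, SE 0.103, adjusted p = 3.28e-05). Ctsb (ENSMUSG00000021939.9), an abundant cysteine protease, was at 400 and 433 CPM in control and at 543 and 632 CPM in Lhx2 cKO (0.50, SE 0.106, adjusted p = 4.79e-04). In each of these Lhx2 cKO 2 was the highest library and the groups did not overlap. Ctsz was at 0.49 (adjusted p = 1.87e-04), Ctss, the cathepsin most typical of microglia, at 0.56 (adjusted p = 0.00202), and Grn, which encodes progranulin, at 0.39 (adjusted p = 0.00315). Cd68, a lysosomal membrane protein used to mark phagocytic microglia, was at 22.1 and 19.6 CPM in control and at 24.4 and 26.9 CPM in Lhx2 cKO and was not called (0.30, SE 0.126, adjusted p = 0.0883). Without Lhx2 cKO 2 neither Ctss (adjusted p = 0.0546) nor Grn (0.122) was called, and Grn also lost its call without control 1 (0.101). Ctsb, Ctsz and Grn overlap Fdft1, Nelfcd and Fam171a2 on the other strand, and Ctsd overlaps Gm49369 on its own strand, so these counts are uncertain. Fdft1, Nelfcd and Fam171a2 were not called (adjusted p 0.165, 0.575 and 0.32).

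The border macrophage genes analysed were Lyz2 and Mrc1, and both were called higher, though Mrc1 had a row only through the Lhx2 cKO libraries. Lyz2 (ENSMUSG00000069516.9), the lysozyme of myeloid cells, was at 2.27 and 2.12 CPM in control and at 7.87 and 8.53 CPM in Lhx2 cKO (1.90, SE 0.249, adjusted p = 1.38e-07). It had the largest log2 fold change after Aif1. Mrc1 (ENSMUSG00000026712.4), the mannose receptor CD206, had 17 and 17 counts in control and 39 and 38 in Lhx2 cKO (1.28, SE 0.464, adjusted p = 0.0434). At its control level its row would total 68 counts, under the lowest total of the table, so its call was favoured in advance. The replicates of Mrc1 were close, but at this depth the call was lost without any one of the 4 libraries (adjusted p 0.131 to 0.15) and in DESeq2 (0.109). Of the 3 activation-state genes Gpnmb, Spp1 and Lgals3, 0 were analysed here.

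The rises were then measured against the summed counts of the 9 identity genes, to see which genes changed by more or by less than that sum. This sum, 1742 and 1838 reads for control and 3070 and 3290 for Lhx2 cKO, replaced the library size in edgeR. Csf1r and Cx3cr1 weigh most in it, with 675 and 474 reads in control 1 and log2 fold changes of 0.71 and 0.96. Single identity genes ran from 0.40 for P2ry12 to 2.23 for Aif1, so the scale does not stand for each of them. How much of the sum came from microglia and how much from other macrophages was not tested. Of the 34 other analysed genes, 22 did not differ from this scale beyond the test's threshold, 5 were called higher and 7 lower. On this scale 0.843% of all other genes were called higher and 88.6% lower, with a median of -0.93. A gene called lower on it may therefore have risen, and the 7 lower calls (20.6% of 34) were a smaller share than among all genes. The 5 genes called higher were Lyz2 at 0.96 (SE 0.268, adjusted p = 4.18e-04), Mpeg1 at 0.64 (SE 0.153, adjusted p = 3.94e-05), Trem2 at 0.57 (SE 0.184, adjusted p = 0.00225), C1qc at 0.46 (SE 0.134, adjusted p = 6.46e-04) and C1qb at 0.42 (SE 0.128, adjusted p = 0.00132). All 5 kept the call when each library was left out. The third chain, C1qa, was at 0.10 (SE 0.129, adjusted p = 0.431), and Tyrobp, the partner of Trem2, was at 0.38 (SE 0.231, adjusted p = 0.107).

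The 7 genes called lower on this scale were Itgam at -1.97 (SE 0.35, adjusted p = 2.92e-08) and 6 of the 7 phagocytic and lysosomal genes, from -0.64 for Cd68 (SE 0.137, adjusted p = 4.66e-06) to -0.36 for Lgmn (SE 0.111, adjusted p = 0.00162). Ctsd was the exception in that group, at 0.04 (SE 0.11, adjusted p = 0.749). Ctss lost its lower call without control 2 (adjusted p = 0.0863) and without Lhx2 cKO 1 (0.0621), and Lgmn without control 2 (0.0506). Spi1 and Irf8 were at 0.25 and -0.11 (adjusted p 0.462 and 0.741). When the 3 analysed transcription factors set the scale instead, Lyz2 remained called higher and Itgam lower, and the other 10 calls were lost. The estimates of these 10 moved little, with Mpeg1 at 0.59, Trem2 at 0.53, C1qc at 0.43 and Grn at -0.62. That scale was small, with summed levels of 6.1 and 4.16 CPM in control and 9.85 and 9.84 CPM in Lhx2 cKO. On it 60 of all 13288 genes were called higher and 9785 lower. With the geometric mean of the identity genes, which gives each the same weight, 4 of the 5 higher calls remained. C1qb was lost (0.23, adjusted p = 0.088 in edgeR), and 10 genes were called lower. Of all 13288 genes, 83 were called higher and 12281 lower with the geometric mean.

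**Figure D3:**
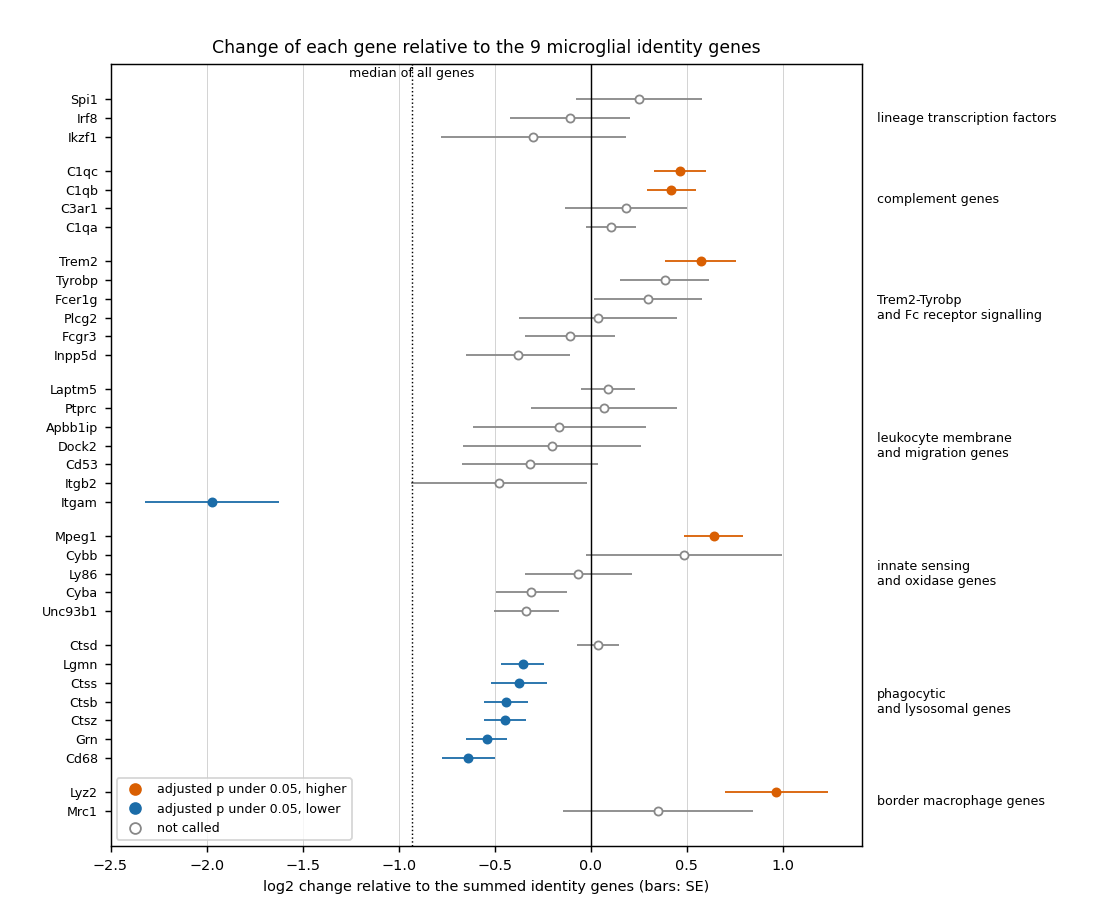
Log2 change of the 34 other analysed genes relative to the summed counts of the 9 identity genes, with bars of 1 standard error. A gene at 0 changed as much as that sum, in which Csf1r and Cx3cr1 weigh most, and the dotted line at -0.93 is the median of all genes. Lyz2, Mpeg1, Trem2, C1qc and C1qb lie above 0 and were called, and 6 phagocytic and lysosomal genes lie between the dotted line and 0.

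The same counts were also read in each library as a ratio of summed CPM. These ratios restate the fit above and are no further test of it, and each sum follows its most abundant genes. The complement genes summed to 0.773 and 0.758 times the identity genes in control and to 0.909 and 1.001 times in Lhx2 cKO. The Trem2 and Fc receptor group was at 0.309 and 0.274 in control and at 0.336 and 0.342 in Lhx2 cKO. Both ratios were higher in Lhx2 cKO with no overlap. The phagocytic and lysosomal genes went the other way, from 12.3 and 12.5 times in control to 9.28 and 10.2 times in Lhx2 cKO. Genes of other cells fell on this ratio too. Broad lysosomal genes, made in most cells, went from 49.99 and 51.5 to 31.3 and 33.6 times. Cortical markers went from 66.4 and 62.5 to 30.1 and 29.5 times. Whether the phagocytic and lysosomal genes fell within microglia was not tested. The ratio of Lyz2 and Mrc1 was 0.0413 and 0.0381 in control, against 0.071 and 0.0711 in Lhx2 cKO. Mrc1 had a row only through the Lhx2 cKO libraries, which favoured a rise of this ratio in advance. Ikzf1, Dock2 and Cybb, in the transcription factor, leukocyte membrane and innate groups, were kept in the same way. For the transcription factors, at 0.085 and 0.0566 in control and then 0.073 and 0.0687, and the leukocyte membrane group, at 0.377 and 0.323 and then 0.322 and 0.312, the replicates of control spread as widely as the groups. The innate group was at 0.432 and 0.425 in control and at 0.424 and 0.489 in Lhx2 cKO, so its groups overlapped. With 2 libraries against 2 the smallest two-sided p an exact permutation test can give is 0.333, so these ratios are given as values.

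**Figure D4:**
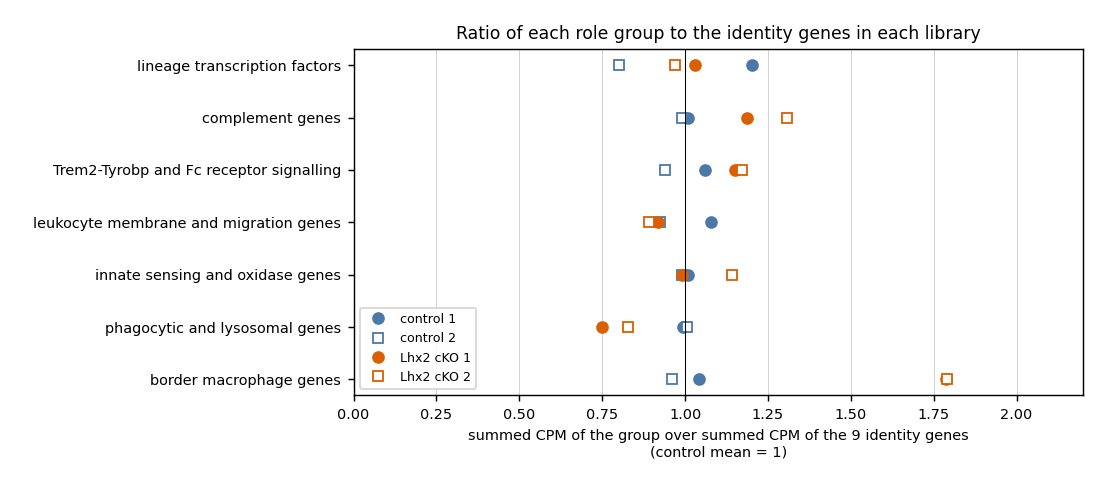
Summed CPM of each role group divided by the summed CPM of the 9 identity genes in each library, scaled so that the control mean is 1; symbols as in the plot of levels. Complement and border macrophage genes lie to the right of 1 in both Lhx2 cKO libraries and phagocytic and lysosomal genes to the left. Mrc1, a border macrophage gene, had a row only through the Lhx2 cKO libraries.

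Other genes linked to these cells were read from further lists, though not all are specific to them. Mef2c and Tgfbr1 of the microglial list had mean control levels of 147 and 156 CPM, against 27.4 CPM for Csf1r. In the activation-state list Fabp5 and Lpl were at 169 and 139 CPM. The medians of these lists may therefore hold the RNA of other cells, and that share was not tested. Of 27 analysed further microglial genes, 13 (48.1%, against 11.6% of all genes) were called higher and 2 lower, with a median log2 fold change of 0.61. Leaving out a library in turn gave medians from 0.53 to 0.68. Each of these fits called fewer of the 27 higher, and also fewer of all genes. Gas6, a bridging protein for the uptake of dying cells, was at 1.10 (adjusted p = 3.18e-08). The 2 called lower were Sall1 at -0.79 (adjusted p = 1.35e-05), a factor that neural progenitors also express, and Tmem119 at -1.04 (adjusted p = 0.0032), a marker that appears in mature microglia, named after its values were seen. Tmem119 was at 6.93 and 5.6 CPM in control and at 2.33 and 3.74 CPM in Lhx2 cKO, and was not called without control 1 (adjusted p = 0.0541) or Lhx2 cKO 1 (0.0721). Siglech, a further microglial receptor named after its values were seen, was at 1.18 (adjusted p = 2.89e-04). The 2 lower calls are 7.41% of the 27, under the 9.17% of all genes called lower.

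All 4 analysed further border macrophage genes were called higher, Apoe at 1.68 (adjusted p = 5.58e-16), Stab1 at 0.75 (adjusted p = 3.21e-06), Maf at 0.39 (adjusted p = 0.00395) and Dab2 at 1.08 (adjusted p = 0.00783), the last named after its values were seen. Each is also made by other cells. Maf was not called without control 2 (adjusted p = 0.0819) or Lhx2 cKO 1 (0.116), nor Dab2 without control 1 (0.146) or Lhx2 cKO 1 (0.133). Cd163, Lyve1, Ms4a7, Cbr2, Clec4n, Cd209f and Cd36 were not analysed here. Of 10 analysed further activation-state genes 4 (40%) were called higher and 0 lower, with a median of 0.26. Over all genes 11.6% were called higher and 9.17% lower. Leaving out a library in turn gave medians from 0.17 to 0.32. Some of these fits called fewer of the 10 higher, and each called fewer of all genes. The 4 genes included Csf2ra at 0.42 (adjusted p = 0.00117), Cd63 at 0.44 (adjusted p = 0.0107) and Cybrd1 at 1.19 (adjusted p = 0.0181). Cd63 was not called without Lhx2 cKO 2 (adjusted p = 0.343) or control 1 (0.132), nor Cybrd1 without Lhx2 cKO 1 (0.295) or control 1 (0.119). Of 7 analysed ligands that act on microglia, Cd200, a neuronal inhibitor of macrophages, was called higher at 0.84 (adjusted p = 9.94e-09), as was fractalkine, Cx3cl1, at 0.52 (adjusted p = 0.00488). The chemokine Cxcl12, which guides cells through the cortex, was called lower at -1.03 (adjusted p = 2.61e-09). The ligands of Csf1r were not called: Csf1 was at 0.12 (adjusted p = 0.559) and Il34 at -0.03 (adjusted p = 0.963). Without Lhx2 cKO 2 Cx3cl1 was not called (adjusted p = 0.182), nor without control 1 (0.0948).

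Several lists of other cells and programmes moved in the same libraries. Beside them, 11.6% of all genes were called higher and 9.17% lower. Of 30 broad lysosomal genes, made in most cells, 13 were called higher and 0 lower, with a median of 0.24. Leaving out a library in turn gave medians from 0.14 to 0.34. Some of these fits called fewer of the 30 higher, and each called fewer of all genes. Gusb was at 1.01, Hexa at 0.59 and Ctsf at 0.43. Their summed level was 3592 to 3788 CPM in control and 4226 to 4811 CPM in Lhx2 cKO, against 883 to 916 and 1252 to 1466 CPM for the 7 phagocytic and lysosomal genes. Of 22 analysed interferon-stimulated genes 20 were called higher and 0 lower, with a median of 2.12, and their summed level was 121 to 137 CPM in control and 272 to 283 CPM in Lhx2 cKO. Of these, 7 had a row only through the Lhx2 cKO libraries, Usp18 among them, and of the other 15 genes 13 were called higher, with a median of 1.87. Usp18 was at 4.42 and Bst2 at 2.71. Of 10 endothelial markers 7 were called higher and 0 lower, with a median of 0.49 and summed levels of 278 to 337 and 391 to 447 CPM; Cldn5 was at 0.70, Cdh5 at 0.72 and Mfsd2a at 0.53. The endothelial median ran from 0.34 to 0.72 with each library left out in turn, and some of these fits called fewer of the 10 higher. The part of these programmes in the rises of the microglia and macrophage genes was not tested.

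Red cell markers differed in both directions and depended on single libraries. Of 8 analysed red cell markers 5 were called lower and 1 higher, with summed levels of 2359 to 3200 CPM in control and 1921 to 2154 CPM in Lhx2 cKO. Hbb-bt was at -1.01, Alas2 at -0.82 and Hbb-y, called higher, at 0.49. The lower calls fell to 3 in DESeq2. With each library left out in turn the median ran from -0.61 to -0.17, and some of these fits called fewer lower. Over all genes 9.17% were called lower and 11.6% higher in the main fit. Alas2 was not called without control 1 (adjusted p = 0.121), nor Hba-a1 (0.392), Hba-a2 (0.471) and Hbb-bs (0.655), which were named after their values were seen. Hba-a1 and Hba-a2, like Hbb-bs and Hbb-bt, are near-identical copies, so their counts are uncertain. Hbb-y was not called without control 2 (adjusted p = 0.0581) or Lhx2 cKO 1 (0.106). Of the platelet markers only Itga2b and Gp1ba of 8 were analysed, with Itga2b called lower at -0.73 (adjusted p = 0.00531) and Gp1ba at -0.68 and not called. Itga2b lost its call without Lhx2 cKO 1 (adjusted p = 0.0668). Of pericyte and meningeal markers 2 of 8 analysed were called lower, Col1a1 at -3.00 and Rgs5 at -0.34, and 0 higher. Rgs5 was not called without control 2 (adjusted p = 0.0541) or Lhx2 cKO 2 (0.0639), nor Kit, a mast cell marker, without control 2 (0.129) or Lhx2 cKO 1 (0.0528). Markers of other leukocytes were few: 1 of 12 monocyte and neutrophil markers, Csf3r, at 0.82 (adjusted p = 0.04998), 1 of 10 lymphocyte markers, Lck, at -0.42 (not called), and 2 of 7 mast cell markers, Kit, called lower at -0.39, and Gata2 at 0.86 (not called). The others of these lists were not analysed here. Csf3r lost its call under 8 alternatives, with adjusted p up to 0.555.

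**Figure D5:**
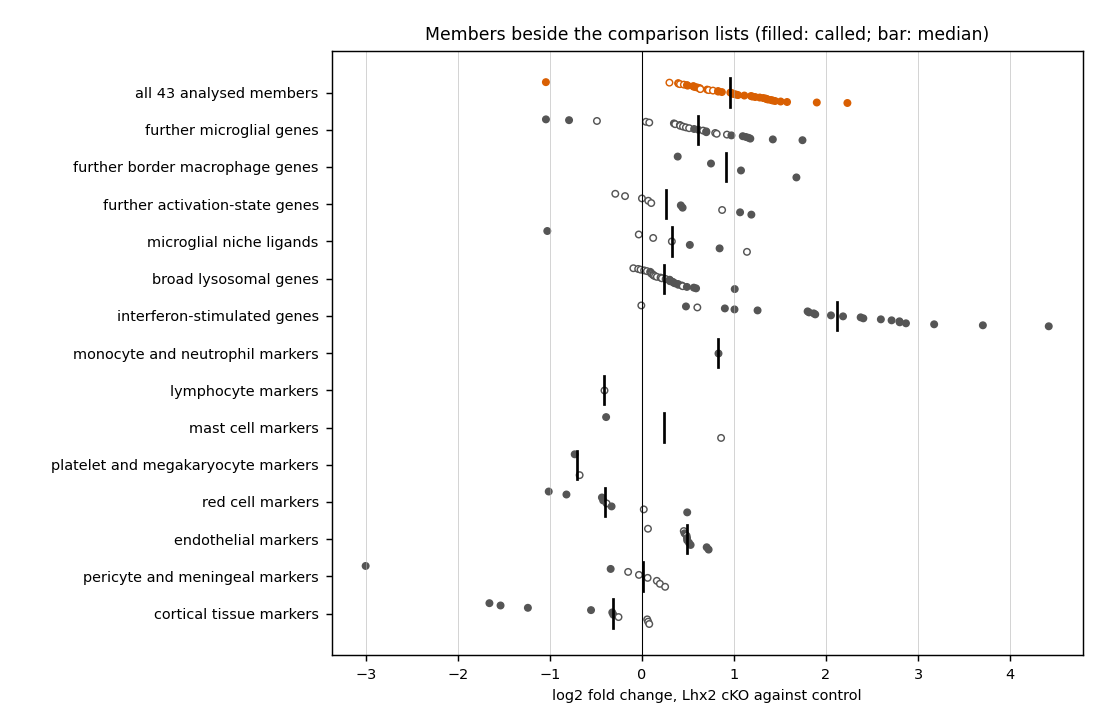
Log2 fold change of the 43 analysed microglia and macrophage genes (orange) and of the analysed genes of each comparison list (grey); filled points were called in edgeR and each bar is the median. The medians are 0.96 for the orange points, 2.12 for interferon-stimulated genes, 0.49 for endothelial markers and -0.40 for red cell markers.

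The authors' deposited table gave the same calls for these genes. Its fold changes stand beside the counts used here, and edgeR is among the submitters' named tools, so the match is no independent support. There, in the authors' deposited table, a set of 32 of the 43 had an adjusted p under 0.05 with a higher level and 1 with a lower level, and all 33 were called here, against 11.1% of all genes higher in that table. The log2 fold changes of the authors' deposited table lay within 0.0106 of those fitted here.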

How the data were processed

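RNA-seq of E15 mouse cortex was analysed in 2 control and 2 Lhx2 cKO libraries, grouped and numbered from their titles. The deposited table holds raw read counts per gene from the authors. Trim Galore, Subread, featureCounts, edgeR and the build mm39 are named, without their roles, per the submitters' processing notes. The use of strand and the annotation are not given in the sources used here. Per the file headers the table also carries the authors' log2 fold change and mean log2 CPM, their p-value and adjusted p-value, and its -log10. The deposited gene length is in bases, and levels per kilobase divide by it. No row sums to fewer than 102 counts, and a gene kept only through the group where it is high had to differ.

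edgeR 4.0.16 in R 4.3.3 fitted the 13288 genes left by filterByExpr (minimum count 10) with TMM and the quasi-likelihood test, two-sided, without covariates, with Benjamini-Hochberg adjustment over all of them. Standard errors are the absolute log2 fold change over the square root of F. A further fit took the summed counts of the 9 identity genes as library size; noise of that sum enters each gene's dispersion. The fits were tested on simulated data. Alternatives were RLE, upper-quartile or no factors, no filter, a mean count of at least 50, DESeq2 1.42.0, limma-voom (limma 3.58.1), the replicate number as a block, each library left out in turn, and other scale genes. Overlapping exons were read from GENCODE M21 (GRCm38), whose coordinates were not used for the counts. The members and lists were chosen with earlier results of these data known. The rule named, within each role, up to 4 genes by smallest p and the gene with the lowest log2 fold change, and up to 3 called genes of each comparison list; other genes were named after their values were seen, to complete a group, and a few genes the rule names are not reported here. Within each group the 2 libraries were distinct beyond counting noise, with chi-square statistics of 13.9 (control) and 14.3 (Lhx2 cKO) per degree of freedom.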

Additional observations from a re-analysis of the deposited data

How the results depend on the processing

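The signs of the 43 log2 fold changes were the same under each alternative run that tested them. Of the 33 calls 28 were shared with DESeq2, 30 with the filter at a mean of 50 counts (35 genes tested), 32 with RLE factors or no filter, and all 33 with upper-quartile factors, library totals and limma-voom. DESeq2 called 0 of the 43 lower, 1 transcription factor, 1 leukocyte membrane gene and 1 border macrophage gene higher, and 0 leukocyte membrane genes lower. RLE factors and no filter each gave 1 leukocyte membrane gene higher. The filter at a mean of 50 counts, which tests fewer genes, gave 1 border macrophage gene with a median of 1.91 and an innate median of 0.75. Leaving out genes that overlap another gene, added after the data were seen, gave 0 called lower, since Itgam is one of them. With the transcription factors as scale 1 gene was called higher and 1 lower, against 60 and 9785 of all 13288 genes. With the geometric mean the relative median was -0.28, against -1.12 over all genes. The cause was not tested.

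Libraries numbered alike did not deviate together, with a correlation across genes of 9.74e-04 between the within-group differences, so no pairing was assumed. With the replicate block 33 of the 43 were called, the same 33 genes. Of the comparison genes named, Csf3r lost its call with the block (0.80, adjusted p = 0.0577 in edgeR).

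Leaving out one library leaves 1 in its group, which is assumed to vary like the other pair. Each of these fits also called fewer of all genes, higher and lower. Over these 4 fits Lhx2 ran from -0.38 to -0.25, the median of the 43 genes from 0.84 to 1.07 and calls lower from 0 to 1. Medians ran from 0.95 to 1.39 for identity genes, from 1.18 to 1.34 for complement, from 0.96 to 1.39 for the Trem2 group, from 0.30 to 1.04 for leukocyte membrane genes, from 0.76 to 0.99 for innate genes, from 0.76 to 1.10 for transcription factors and from -0.18 to 0.14 relative to the identity genes. Calls higher ran from 0 to 2 for transcription factors, from 1 to 2 for leukocyte membrane genes (0 to 1 lower), from 2 to 5 for innate genes, from 4 to 6 for phagocytic and lysosomal genes and from 1 to 1 for border macrophage genes. Depth limits genes under about 50 counts in control, such as Mrc1, Cybb, Ptprc and Spi1.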

Other observations

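Genes of the uptake of dying cells were read after their values were seen. Mertk, a receptor that binds dying cells through the bridging proteins Gas6 and Pros1, was at 0.907 and 1.6 CPM in control and at 4.66 and 3.79 CPM in Lhx2 cKO, 1.74 on the log2 scale (SE 0.348, adjusted p = 2.09e-04 in edgeR). Gas6 was at 12.5 and 13.4 CPM in control and at 26.4 and 29 CPM in Lhx2 cKO. Both lay above control in each Lhx2 cKO library. Pros1 was at 0.45 (adjusted p = 0.0921), and Axl, the related receptor, at -0.18 (adjusted p = 0.327), and neither was called. Relative to the identity genes Mertk was at 0.82 (SE 0.359, adjusted p = 0.026), a call lost without control 1 (0.26) or Lhx2 cKO 1 (0.2), in DESeq2 (0.0712) and with the other scale genes, and Gas6 was at 0.16 (adjusted p = 0.294). The small GTPase Rac2, which drives the cytoskeleton of phagocytes, was at 1.42 (adjusted p = 0.00222) and was not called without control 1 (0.0688) or Lhx2 cKO 1 (0.0569).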
